A study of Mus musculus with 8 samples.

Results

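The genes described here encode the subunits of oxidative phosphorylation, that is, of respiratory complexes I to IV and of ATP synthase (complex V). Members were chosen by symbol. The patterns took Nduf genes of the a, b, c, s and v series without the Ndufaf assembly factors, and Sdha to Sdhd. They also took Uqcr, Cox4 to Cox8 followed by a letter a, b or c, Atp5 and the protein-coding mt- genes. Of the 55367 genes in the count table, 112 symbols matched, and 87 of them held at least 10 counts in at least 3 of the 8 libraries and were among the 12137 genes tested. The nuclear genome holds 80 of these members and the mitochondrial genome 7. The 80 include 3 complex I symbols that mark pseudogenes, Ndufa12-ps, Ndufs5-ps and Ndufb1-ps. The patterns miss Cox4i1, Ndufab1, Cyc1 and Cycs, which belong to the same machinery and are given separately.

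Poly(A) RNA was sequenced from a fibroblastic reticular cell (FRC) line, the contractile stromal cells that form the network of the lymph node. The line was made from lymph nodes of p53ER/ER C57BL/6 mice, so all 8 libraries share that allele and stand for 1 line. For 4 days the cells received RPMI with 15 mmol/L lactic acid (LA), RPMI with as much water in place of the acid (vehicle), RPMI conditioned by FRCs (control-conditioned medium, CCM) or RPMI conditioned by B16.F10 melanoma cells (tumor-conditioned medium, TCM), with 2 libraries per condition. CCM was the control of TCM, and vehicle that of LA. Total counts ranged from 8232889 to 14107964 per library with a median of 10111168.5, and 3 counts in a library equal 0.213 to 0.364 CPM, the count scaled to the size of the library. The labels number the libraries of a condition 1 and 2. The p-values of the gene tests measure the spread between such libraries, estimated jointly over all 8 libraries. Over all genes the TCM libraries differed more than those of the other conditions, so tests of TCM are not set against the spread of TCM alone. The line carried its stromal markers: Col1a1 lay between 12570 and 17230 CPM, Pdgfrb between 267.5 and 509 CPM and Pdpn between 114 and 187 CPM. Thy1 stayed between 0.0925 and 1.75 CPM, and Ccl19 and Cxcl13, chemokines of lymph node FRCs, were at 0 in all but 1 library, a CCM library. The leukocyte markers Ptprc, Cd3e and Itgam were at 0 in all libraries, and the summed level of 5 melanoma markers was 0.956 to 1.77 CPM with Tyr at 0. In these bulk libraries, fewer cells of a kind and less RNA per cell cannot be told apart.

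Complexes I, III and IV pump protons across the inner mitochondrial membrane as electrons pass from NADH and succinate to oxygen, complex II feeds electrons in from succinate, and complex V uses the proton gradient to make ATP. Complex II is built from nuclear genes alone, whereas the other complexes join nuclear-encoded subunits to a hydrophobic core made inside the mitochondrion. The mitochondrial genome is read as long transcripts that are cut into single mRNAs, so the level of each mRNA also depends on how long it lasts.

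The 7 mitochondrially encoded members are mt-Nd1, mt-Nd2, mt-Nd4, mt-Nd5, mt-Nd6, mt-Cytb and mt-Co1. The other 6 mitochondrial mRNAs, mt-Co2, mt-Co3, mt-Atp6, mt-Atp8, mt-Nd3 and mt-Nd4l, were listed at 0 in all libraries, apart from single counts of mt-Nd3, and so no mitochondrial subunit of complex V could be measured. Exact copies of mitochondrial sequence lie in the nuclear genome, and the share of each mRNA found letter for letter in a nuclear transcript was measured in windows of 50 bases. It was 100% for mt-Co2, 99.9% for mt-Co3, 99.5% for mt-Atp6, 98.8% for mt-Nd4l and 98% for mt-Nd3. Among the members it was 62.2% for mt-Nd4, 51.1% for mt-Co1, 8.19% for mt-Nd2 and 7.61% for mt-Nd5, and no window of mt-Nd1, mt-Nd6 or mt-Cytb was shared. mt-Atp8 (chrM:7766-7969) shared no window with a nuclear transcript and was also at 0. Sequence outside transcripts was not searched, so a copy of mt-Atp8 there would have been missed. It lies between mt-Co2 and mt-Atp6, whose copies Gm28661 and Gm10925 are at chr1:24614885-24615565 and chr1:24613974-24614651. Bases 101 to 160 of mt-Co2 (chrM:7113-7172, plus strand) and of its copy Gm28661 (chr1:24615406-24615465, minus strand; both GRCm38) are shown as an example of a stretch whose reads match both places.
mt-Co2: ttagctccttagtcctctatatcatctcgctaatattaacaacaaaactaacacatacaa
Gm28661: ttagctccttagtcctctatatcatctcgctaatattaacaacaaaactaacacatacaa
Gm28661 itself held at most 1 count in a library. How the counting treated reads with several matches is not given in the sources used here, and its part in the zeros was not tested. Whether the values of mt-Nd4 and mt-Co1 stem only from the stretches that can be placed was not tested. The 19 nuclear-encoded symbols that were not tested held at most 11 counts in a library, and 10 of them were pseudogenes. They include the testis and muscle isoforms Cox7b2, Cox8b and Cox8c, all at 0.

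Per kilobase of exon and as a mean over the 8 libraries, the mitochondrial mRNAs lay between 22.1 CPM for mt-Nd6 and 1603 CPM for mt-Cytb, with a median of 634 CPM. The full length was used, including the windows shared with nuclear transcripts, 51.1% for mt-Co1 (1499 CPM per kilobase) and 62.2% for mt-Nd4. Their values may therefore be too low, and the order of the mRNAs is uncertain. The 75 nuclear-encoded members with a known exon length had a median of 53.9 CPM per kilobase and reached 256 CPM for Cox8a, a small subunit of complex IV, and 245 CPM for Atp5b, the catalytic beta subunit of ATP synthase. Summed as plain counts, the 80 nuclear-encoded members took 0.767% to 1.04% of a library and the 7 mitochondrial mRNAs 0.531% to 0.945%.

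The first comparison asked whether melanoma-conditioned medium changed the subunit genes relative to CCM. Among the 80 nuclear-encoded members 4 rose and 1 fell, against 8.83% of all genes tested that rose and 10.2% that fell, 19.1% in all. Their median log2 fold change (FC) was 0.27, with 73 of 80 above 0, while the median over all genes tested was 0.00. Of the 7 mitochondrial mRNAs 2 rose and 1 fell, with a median of -0.04. A gene was called when edgeR's quasi-likelihood test gave an adjusted p under 0.05, by the Benjamini-Hochberg method over all genes tested, and the log2 FC lay beyond 0.39.

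The positive median of the nuclear-encoded members came from 1 of the 2 TCM libraries. In TCM library 1, 76 of the 80 members had their highest level of all 8 libraries, whereas 24.5% of all genes tested had theirs there. In TCM library 2, where 16.6% of all genes had their highest level, 0 of 80 members did, and 20 had their lowest. CCM library 1 held the lowest level of 21 members and vehicle library 2 that of 13. The share of all genes with their lowest level in each library was not computed. Expressed as deviation from each gene's own mean over the 8 libraries, on the log2 CPM scale, the median member stood at 0.42 in TCM library 1 and at -0.05 in TCM library 2. The 6 other libraries had medians from -0.12 to 0.01, so TCM library 2 lay within their range and TCM library 1 far above it.

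**Figure D1:**
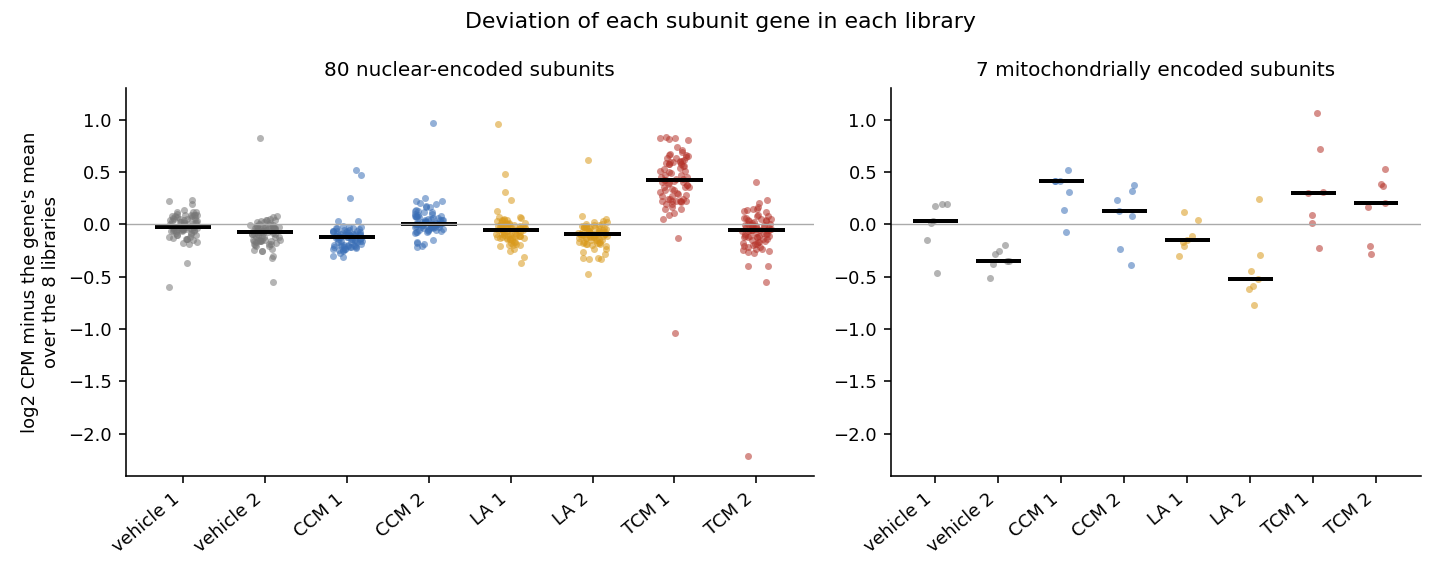
Deviation of each gene's log2 CPM from its own mean over the 8 libraries, for 80 nuclear-encoded (left) and 7 mitochondrially encoded subunits (right); each dot is a gene and each black bar the median of a library. Nuclear-encoded subunits sit high in TCM library 1 (median 0.42) and near 0 elsewhere, with Ndufa4l2 as the low point of both TCM libraries; the mitochondrial medians also differ between the libraries of vehicle and of LA.

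Set against the mean of the CCM libraries, 77 of 80 nuclear-encoded members were higher in TCM library 1, with a median log2 difference of 0.48 and quartiles of 0.30 and 0.66. In TCM library 2 it was 40 of 80, with a median of 0.01 and quartiles of -0.11 and 0.09. Each of the 5 complexes, assigned by gene symbol, showed the split. The median difference was 0.48 for complex I in TCM library 1 and 0.00 in TCM library 2. For complex II it was 0.41 and 0.07, for complex III 0.51 and 0.08, for complex IV 0.57 and -0.02, and for complex V 0.41 and -0.03. Within complex I, the 7 nuclear-encoded core subunits, which carry the flavin and iron-sulfur clusters, had a median of 0.29 in TCM library 1. The 33 other nuclear-encoded members with Nduf symbols had one of 0.54. They include the 3 pseudogene symbols, Ndufa4 and Ndufa4l2. The mitochondrial mRNAs did not share the gap, with medians of 0.03 and 0.04.

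**Figure D2:**
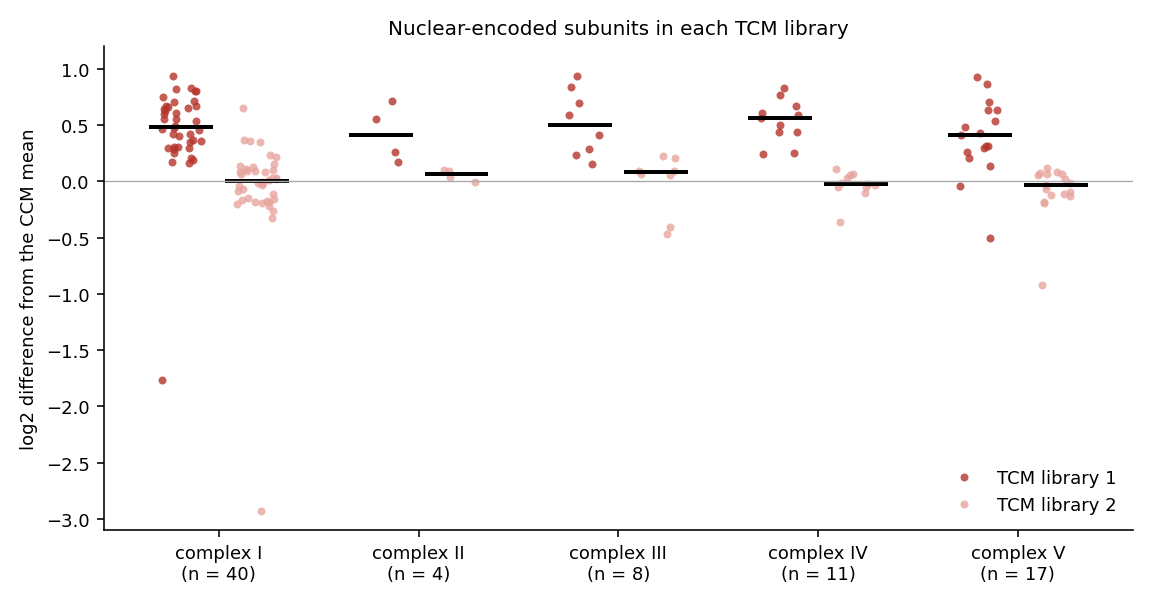
Log2 difference of each nuclear-encoded subunit from the mean of the CCM libraries, by complex as assigned from the symbol (n, number of genes), for TCM library 1 (dark) and TCM library 2 (light). Each dot is a gene and black bars are medians. In all 5 complexes the median lies between 0.41 and 0.57 in TCM library 1 and between -0.03 and 0.08 in TCM library 2; the lowest dots of complex I are Ndufa4l2.

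Refitted without TCM library 2, edgeR called 48 of the 80 nuclear-encoded members higher and 0 lower, beside 11.9% and 11.7% of all genes. Refitted without TCM library 1, it called 0 higher and 3 lower, beside 9.01% and 9.85% of all genes. In the latter fit 3 genes made up the calls: Ndufa4l2, at a log2 FC of -3.34, and the complex III subunits Uqcr10, at -0.47, and Uqcrq, at -0.41. Uqcrq was singled out after its values were seen. The lone TCM library of such a fit is assumed to vary like the other conditions. Leaving out either CCM library lowered the number of calls both among the nuclear-encoded members and over all genes. With all libraries present, DESeq2 called 9 nuclear-encoded members higher and 0 lower, beside 8.26% and 8.25% of all genes. Ndufs5 (DESeq2 adjusted p = 0.092) and Ndufa4l2 (DESeq2 adjusted p = 0.066) were not among its calls.

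The 4 nuclear-encoded genes that rose encode 3 subunits of complex I and 1 of complex III. Uqcrh, the hinge subunit of complex III (chr4:116066965-116075071), measured 101 and 111.5 CPM in CCM and 204 and 123 CPM in TCM. Vehicle (101 and 103 CPM) and LA (105 and 102 CPM) lay with CCM, and TCM library 1 stood apart from the other 7 libraries. The log2 FC for TCM was 0.62 (SE 0.18, edgeR adjusted p = 0.031), and 0.21 without TCM library 1 (adjusted p = 0.12). Uqcrh overlaps Gm12854, and whether strand was used in counting is not given in the sources used here. The 300 bases around its RefSeq start (GRCm38.p6, chr4:116075021-116075320, minus strand) hold the core motif of ETS factors such as GABP, marked in capitals.
Uqcrh: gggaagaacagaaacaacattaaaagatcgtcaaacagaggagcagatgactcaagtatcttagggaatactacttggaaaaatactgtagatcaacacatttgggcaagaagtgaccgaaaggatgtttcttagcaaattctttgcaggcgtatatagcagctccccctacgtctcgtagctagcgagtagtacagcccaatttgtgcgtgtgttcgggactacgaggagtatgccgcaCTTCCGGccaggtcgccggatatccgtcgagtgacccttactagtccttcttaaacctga

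Ndufa6, an accessory subunit of complex I (chr15:82350140-82354322), had 61.5 and 72.4 CPM in CCM and 117 and 86.3 CPM in TCM. Both TCM libraries lay above all others, since vehicle had 74.3 and 65.3 CPM and LA 63.9 and 61.1 CPM. The log2 FC was 0.60 (SE 0.14, adjusted p = 0.013, edgeR). Without TCM library 1 it was 0.37 at an adjusted p of 0.034, just under the fold threshold, and without CCM library 1 it was 0.49 (edgeR adjusted p = 0.13), so neither fit called it. Its start region (GRCm38.p6, chr15:82354242-82354541, minus strand) holds the core of the site of nuclear respiratory factor 1 (NRF1), in capitals.
Ndufa6: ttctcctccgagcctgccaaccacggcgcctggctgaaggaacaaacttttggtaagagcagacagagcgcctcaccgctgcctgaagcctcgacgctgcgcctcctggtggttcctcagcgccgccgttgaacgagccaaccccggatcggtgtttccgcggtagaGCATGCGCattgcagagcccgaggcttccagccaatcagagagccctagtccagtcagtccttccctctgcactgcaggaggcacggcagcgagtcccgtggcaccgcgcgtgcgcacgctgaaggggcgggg

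Ndufv3, a subunit of the NADH-oxidizing flavoprotein part of complex I, had 49.8 and 52.5 CPM in CCM and 78.7 and 65.4 CPM in TCM. All other libraries lay between 49.8 and 60.2 CPM, so the TCM libraries did not overlap them. The log2 FC was 0.50 (SE 0.12, edgeR adjusted p = 0.011) and 0.36 without TCM library 1. Ndufv3 was not called in that fit, nor without CCM library 1 (0.46) or CCM library 2 (0.53). Ndufs5 had 4.30 and 4.68 CPM in CCM and 8.01 and 7.09 CPM in TCM, or 49 to 76 counts in these libraries, with a log2 FC of 0.75 (SE 0.21, edgeR adjusted p = 0.028). Here both TCM libraries were close to each other, and the log2 FC without TCM library 1 was 0.66. Ndufs5 was nevertheless not called in that fit, nor without CCM library 1 (0.69) or CCM library 2 (0.81). A pseudogene copy, Ndufs5-ps, had 6.75 and 7.55 CPM in CCM and 8.01 and 8.30 CPM in TCM, so reads may have been split between the copies and the value of Ndufs5 is uncertain.

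Ndufa4l2 was the nuclear-encoded member that fell. It is the hypoxia-induced relative of Ndufa4, and was barely expressed: 12 and 15 counts in CCM, 3 and 1 in TCM, 12 and 16 in LA and 4 and 14 in vehicle. Vehicle library 1, at 0.447 CPM, lay close to TCM library 1, at 0.316 CPM. The ratio of pooled TCM to pooled CCM counts, scaled to library size, was 0.177 with an exact (Clopper-Pearson) 95% interval of 0.0451 to 0.509, which covers counting error only. The fitted log2 FC was -2.44 (SE 0.70, edgeR adjusted p = 0.029). Ndufa4 itself, now counted with complex IV by its function, measured 171 and 194 CPM in CCM and 252 and 163 CPM in TCM, so that its TCM libraries lay on either side of CCM.

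Other nuclear-encoded subunits were not called, also where TCM library 1 was far above the rest. Cox6a1, the widely expressed form of subunit VIa of complex IV, had 107 and 111 CPM in CCM and 193.5 and 118 CPM in TCM (log2 FC 0.52, SE 0.18, edgeR adjusted p = 0.059). Atp5mpl, a small subunit of ATP synthase, had 56.7 and 62.6 CPM in CCM and 114 and 62.5 CPM in TCM (log2 FC 0.56, edgeR adjusted p = 0.081). In each case TCM library 2 lay close to or within the range of CCM. Atp5b, the nuclear-encoded member with the highest CPM, had 959 and 1026 CPM in CCM and 1146 and 1034 CPM in TCM (log2 FC 0.14, edgeR adjusted p = 0.38). Uqcrc1, a core subunit of complex III, had 130.0 and 135 CPM in CCM and 177 and 155 CPM in TCM, and at a log2 FC of 0.32 it passed the test (edgeR adjusted p = 0.035) but not the fold threshold. Sdha, the flavoprotein of complex II, had 240 and 237 CPM in CCM and 268 and 254 CPM in TCM, and Sdhb, its iron-sulfur partner, had 57.7 and 57.6 CPM in CCM and 95.0 and 59.2 CPM in TCM. Atp5l, at 1.09 to 2.36 CPM in all libraries, had the lowest log2 FC of complex V, -0.73 (edgeR adjusted p = 0.18).

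Both libraries of TCM lay above both of CCM for 24 of 80 nuclear-encoded members, or 30.0%, and below for 2. Over all genes tested the shares were 27.8% and 30.5%. Among tissue isoforms, Cox6a2, the muscle form of subunit VIa, stayed at 1.67 to 4.32 CPM in all libraries, far under Cox6a1. The 3 genes for subunit c of ATP synthase encode an identical mature protein, and Atp5g3 was the highest of them in CPM. Atp5g3 had 229 and 259 CPM in CCM and 328 and 242 CPM in TCM. Atp5g1 had 52.5 and 59.9 CPM in CCM and 69.9 and 58.8 CPM in TCM. Atp5g2 had 24.6 and 29.3 CPM in CCM and 26.1 and 27.3 CPM in TCM. None of the 3 passed the test, and the TCM and CCM ranges overlapped in each.

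Of the genes that the symbol patterns miss, Cox4i1, the main form of subunit IV of complex IV, had 380 and 437 CPM in CCM and 623 and 407.5 CPM in TCM. Ndufab1 had 16.2 and 18.3 CPM in CCM and 21.8 and 17.5 CPM in TCM. Cyc1, cytochrome c1 of complex III, had 101 and 113 CPM in CCM and 107 and 103 CPM in TCM, and the electron carrier Cycs had 15.5 and 18.5 CPM in CCM and 17.7 and 13.4 CPM in TCM. None of the 4 was called (0 at an unadjusted p under 0.05 and 0 by DESeq2).

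The gap between the TCM libraries ran with exon length across the transcriptome. The 75 nuclear-encoded members with a length are short, with a median exon length of 1569 bases against 4468 bases for 11964 tested genes. Across these 11964 genes the rank correlation of exon length with the log2 ratio of TCM library 1 to TCM library 2 was -0.52, as a description across genes, which are not independent. For the 2 libraries of vehicle it was -0.15, of LA -0.19 and of CCM 0.28. In the shortest of 5 length classes, up to 2464 bases, the other genes had a median log2 gap of 0.29 with quartiles of 0.07 and 0.51, and the 55 members a median of 0.57. In the next class, 2465 to 3757 bases, the medians were 0.11 and 0.34, the latter over 11 members. Median GC content was 50.3% for the members and 49.5% for all genes. The part of length in the result was not tested.

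**Figure D3:**
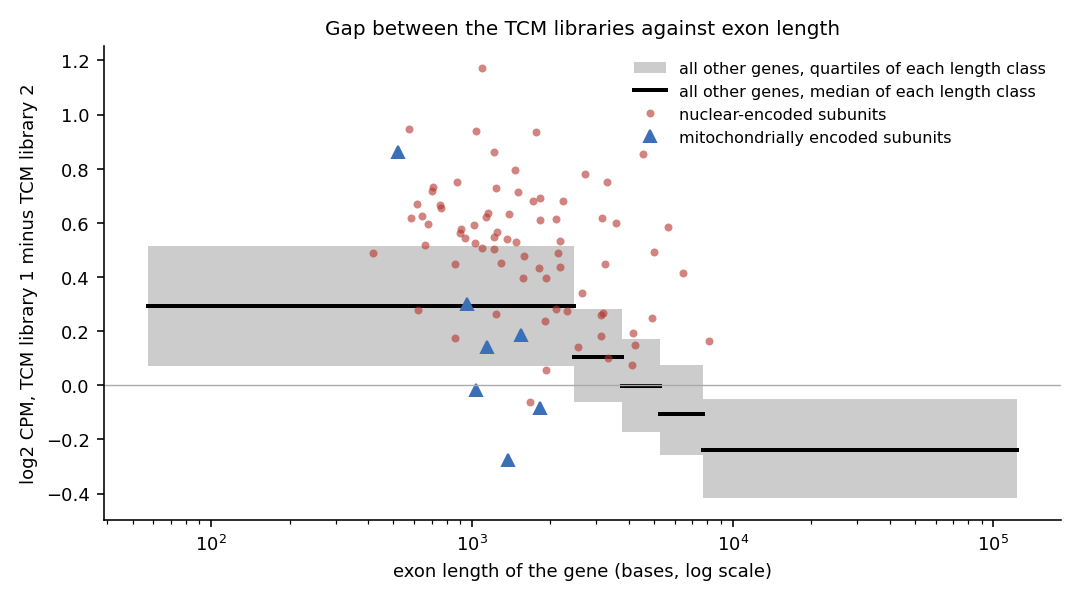
Log2 CPM in TCM library 1 minus TCM library 2 (vertical) against exon length in bases (log axis): red dots, nuclear-encoded subunits; blue triangles, mitochondrially encoded subunits; black lines and gray bands, median and quartiles of all other genes in 5 length classes. The gap of other genes falls from a median of 0.29 in the shortest class to -0.24 in the longest, and most nuclear-encoded subunits lie above the band of their class.

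Over all nuclear-encoded members the median log2 ratio of library 1 to library 2 was 0.53 for TCM, 0.06 for vehicle, 0.03 for LA and -0.14 for CCM. TCM library 1 exceeded TCM library 2 for 78 of 80 members, the exceptions being Ndufs5-ps and Atp5g2, and for 50.4% of all genes. The split was shared by proteins of other machines: the median gap was 0.52 for 81 cytoplasmic ribosomal protein genes and 0.35 for 77 mitochondrial ribosomal protein genes. It was 0.33 for 44 assembly factors, 0.12 for 14 enzymes of the tricarboxylic acid (TCA) cycle and 0.08 for 25 genes that read or maintain the mitochondrial genome.

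Among the mitochondrial mRNAs, mt-Co1, which encodes the catalytic core of complex IV, rose with TCM. It measured 2445 and 1890 CPM in CCM and 3660 and 3220 CPM in TCM. Vehicle had 2009 and 1564 CPM and LA 1934 and 1812 CPM, so both TCM libraries lay above the 6 others. The log2 FC was 0.67 (SE 0.15, edgeR adjusted p = 0.011), with 0.57 and 0.76 when TCM library 1 or TCM library 2 was left out. The former did not pass (edgeR adjusted p = 0.052), nor did the fit without CCM library 2, at 0.49 (edgeR adjusted p = 0.13).

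mt-Nd2, a membrane subunit of complex I, fell. It had 915 and 831 CPM in CCM and 548 and 555 CPM in TCM, with a log2 FC of -0.66 (SE 0.20, edgeR adjusted p = 0.035). The TCM libraries nearly coincided and did not overlap CCM, but they lay between the LA libraries (696 and 426.5 CPM) and just under the lower vehicle library (733 and 560 CPM). mt-Nd1, which lies before mt-Nd2 on the mitochondrial genome, had 1426 and 1334 CPM in CCM and 1079 and 875 CPM in TCM. Its log2 FC was -0.50 (SE 0.18) and did not pass (edgeR adjusted p = 0.078), but passed with DESeq2 (adjusted p = 0.030). Without any 1 of the 4 libraries compared the call of mt-Nd2 was lost, with log2 FC from -0.73 to -0.59.

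mt-Nd6, the member encoded on the other strand (chrM:13552-14070, minus), had 10.3 and 8.22 CPM in CCM and 22.7 and 12.4 CPM in TCM. These are 122 and 86 counts and 215 and 114 counts. The log2 FC was 0.92 (SE 0.27, edgeR adjusted p = 0.033), and 0.42 without TCM library 1 (edgeR adjusted p = 0.23). Without CCM library 1 it was 1.09 (edgeR adjusted p = 0.081) and without CCM library 2 0.77 (edgeR adjusted p = 0.18). TCM library 1 was the highest of the 8 libraries, and LA library 2, at 12.8 CPM, lay above TCM library 2. mt-Nd6 overlaps mt-Nd5 and faces the transcripts of the other strand, from which its reads cannot be told apart without strand.

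The 3 other mitochondrial mRNAs overlapped between TCM and CCM. mt-Cytb, cytochrome b of complex III, had 2396 and 1962 CPM in CCM and 2218 and 2011 CPM in TCM. mt-Nd5 had 1358 and 1160 CPM in CCM and 1346 and 1428 CPM in TCM. mt-Nd4 had 637 and 560 CPM in CCM and 508 and 614 CPM in TCM.

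**Figure D4:**
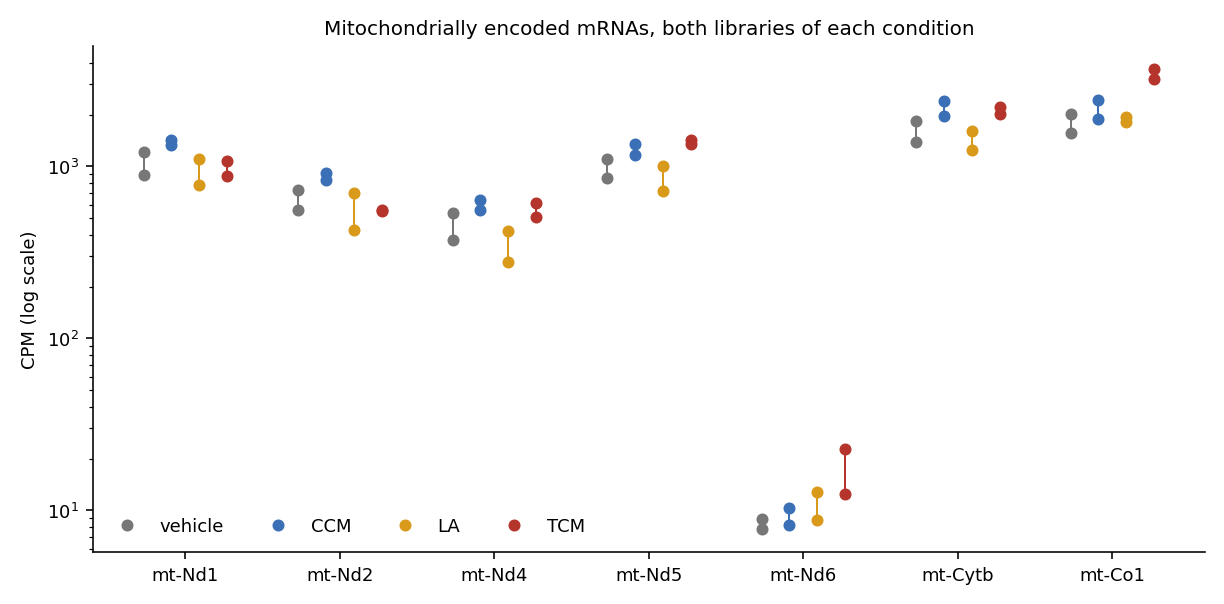
CPM (log axis) of the 7 mitochondrially encoded mRNAs; the points joined by a line are the 2 libraries of a condition. mt-Co1 is highest in TCM (3660 and 3220 CPM), mt-Nd1 and mt-Nd2 are higher in CCM than in TCM, and the libraries of vehicle and of LA lie far apart for most mRNAs.

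Since the level of most mitochondrial mRNAs differed between libraries of a condition, their make-up within a library was also examined. mt-Co1 took 39.0% and 36.9% of the counts of the 7 mRNAs in TCM, against 26.6% and 24.4% in CCM, 27.0% and 27.7% in vehicle and 28.5% and 34.3% in LA. mt-Nd1 took 11.5% and 10.04% in TCM and 14.8% to 17.2% in the 6 other libraries, and mt-Nd2 5.84% and 6.37% against 8.07% to 10.7%. Both TCM libraries thus lay outside the range of the 6 others for these 3 mRNAs. mt-Cytb, at 23.6% and 23.1%, was also below the lowest of the others, 23.7%, while mt-Nd4, mt-Nd5 and mt-Nd6 overlapped. The ratio of mt-Co1 to mt-Nd2 counts was 6.68 and 5.80 in TCM, 2.67 and 2.28 in CCM, 2.74 and 2.79 in vehicle, and 2.78 and 4.25 in LA. It needs no scaling between libraries, and is given as a description with no test.

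**Figure D5:**
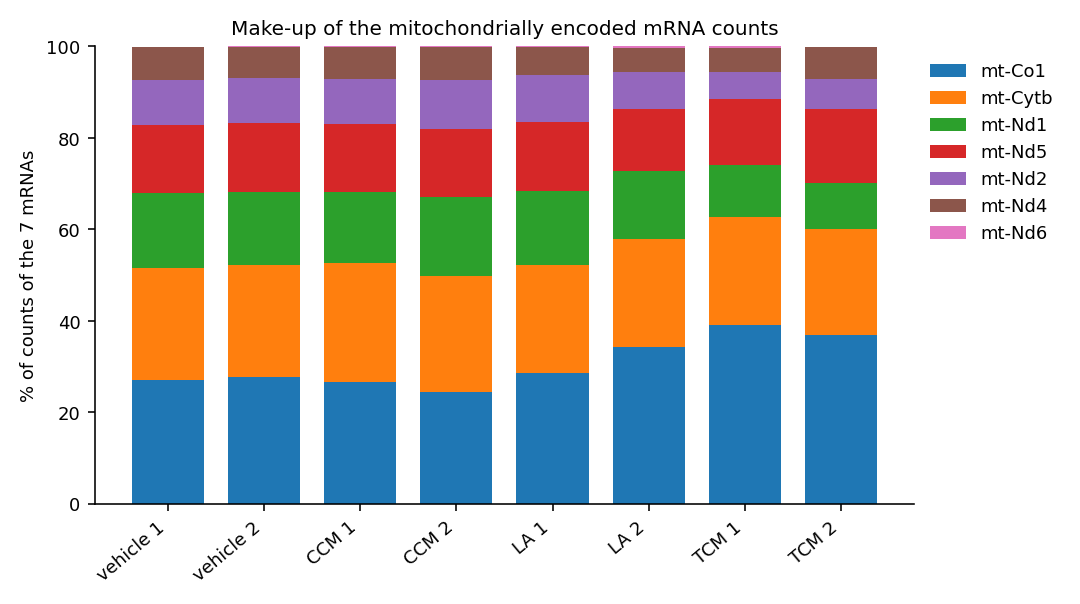
Percentage of the counts of the 7 mitochondrially encoded mRNAs taken by each mRNA, in each library. mt-Co1 takes 36.9% to 39.0% in TCM and 24.4% to 34.3% in the other libraries, with smaller shares of mt-Nd1 and mt-Nd2 in TCM.

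The balance of the genomes was then compared as the ratio of mitochondrially encoded to nuclear-encoded counts. It was 1.18 and 0.909 in CCM and 0.845 and 1.07 in TCM, and 0.888 and 0.700 in vehicle and 0.831 and 0.655 in LA. TCM library 1 lay below both CCM libraries, and TCM library 2 between them. The mean was 0.955 ± 0.156 (SD, n = 2) for TCM and 1.04 ± 0.191 (SD, n = 2) for CCM. LA and vehicle means were 0.743 ± 0.124 and 0.794 ± 0.133 (SD, n = 2 each), with ranges that overlapped. The 2-sided exact permutation p over libraries was 0.667 for both comparisons, but with 2 libraries against 2 it cannot fall under 0.333, so the test could not have passed. Taken instead as the median log2 CPM of the mitochondrial mRNAs minus that of the nuclear-encoded members, the balance was 4.34 and 3.92 in CCM and 3.39 and 3.62 in TCM. By this measure both TCM libraries lay below both CCM libraries (exact permutation p = 0.333, the smallest possible). The mRNA at the mitochondrial median was mt-Nd5 in both CCM libraries (1358 and 1160 CPM) and mt-Nd1 in both TCM libraries (1079 and 875 CPM). The summed CPM of the mitochondrial mRNAs was not lower in TCM, at 9382 and 8716 against 9186 and 7745 in CCM. Vehicle had 3.89 and 3.68 and LA 3.86 and 3.41, so that LA library 2 lay between the TCM libraries. The conditions with the widest spread between libraries were not the same for both genomes. The chi-square between both libraries of a condition, divided by its degrees of freedom so that 1 is counting noise, was 65.6 in TCM and 2.57 to 7.29 in the other conditions for nuclear-encoded members. For mitochondrial mRNAs it was 98.3 in TCM and 206 to 448 in the others, and over all genes 19.8 in TCM and 3.28 to 7.32 in the others.

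Lactic acid, a product of the glycolytic metabolism of melanoma cells, was compared with vehicle. Of 80 nuclear-encoded members 0 were called, with a median log2 FC of -0.04, and of 7 mitochondrial mRNAs 0, with a median of -0.17. Over all genes tested 2.55% were called. At an unadjusted p under 0.05 edgeR had 1 nuclear-encoded member, Cox7a2l, and 0 mitochondrial ones, and DESeq2 called 0 of either. Cox7a2l, a factor of respiratory supercomplexes, had 130.5 and 128 CPM in vehicle and 102 and 106 CPM in LA (log2 FC -0.32, edgeR adjusted p = 0.35). All 11 nuclear-encoded members counted with complex IV by symbol had a log2 FC below 0 for LA, from -0.32 to -0.04. Of these, 8 had both LA libraries below both vehicle libraries. That pattern holds for 24.2% of all genes tested, and for 26 of 80 nuclear-encoded members. The mitochondrial mRNAs had LA and vehicle ranges that overlapped in 7 of 7 cases.

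The difference between the TCM effect and the LA effect called 1 nuclear-encoded member and 0 mitochondrial ones, against 10.4% of all genes tested (for the mitochondrial ones, 1 at an unadjusted p under 0.05, and 1, mt-Co1, by DESeq2). The called gene was Ndufa6, at a difference of 0.76 on the log2 scale (SE 0.21, edgeR adjusted p = 0.038). The call was lost when any 1 of the 6 CCM, LA and vehicle libraries was left out, with differences of 0.65 (without CCM library 1) to 0.88 (without CCM library 2) and edgeR adjusted p from 0.054 to 0.17. The median difference was 0.30 for nuclear-encoded members, 0.54 without TCM library 2 and 0.02 without TCM library 1. Without TCM library 2, 48 nuclear-encoded members were called, beside 20.9% of all genes, and without TCM library 1 the calls were Ndufa6 and Ndufa4l2, beside 13.9%. DESeq2 called Ndufa6 and Cox7a2l, beside 9.22% of all genes.

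The control media were compared as CCM with vehicle. The 80 nuclear-encoded members had a median log2 FC of 0.00 with 0 called, against 1.3% of all genes tested. All 7 mitochondrial mRNAs were above 0, with log2 FC from 0.15 for mt-Nd6 to 0.44 for mt-Cytb and a median of 0.38, but 0 passed the test (2 at an unadjusted p under 0.05, and 0 by DESeq2). For 5 of 7 both CCM libraries lay above both vehicle libraries, a pattern that 25.8% of all genes show. mt-Rnr1, the 12S ribosomal RNA of the mitochondrion, was 264 and 234 CPM in CCM and 151 and 125.5 CPM in vehicle and rose (log2 FC 0.85, SE 0.15, edgeR adjusted p = 0.029). Without any 1 of the 4 libraries compared this call was lost, as were nearly all calls of this comparison over all genes. The log2 FC of mt-Rnr1 then ran from 0.71 to 0.99. mt-Rnr2, the 16S RNA, had 895 and 730 CPM in CCM and 661.5 and 519 CPM in vehicle (log2 FC 0.46, edgeR adjusted p = 0.31). Ribosomal RNA is a remainder in poly(A) libraries. Together both took 0.119% and 0.10% of CCM libraries and 0.0828% and 0.0647% of vehicle libraries, and their part in the result was not tested.

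Genes around the respiratory chain were read from the same fit. Among 8 tested regulators of respiration genes, Esrra rose with TCM, and Nrf1 and Gabpa fell, beside the 8.83% and 10.2% of all genes tested. Esrra, an orphan nuclear receptor, had 30.5 and 29.2 CPM in CCM and 43.3 and 38.1 CPM in TCM (log2 FC 0.45, edgeR adjusted p = 0.014). Nrf1, which encodes NRF1, had 35.5 and 37.6 CPM in CCM and 27.5 and 27.4 CPM in TCM (log2 FC -0.41, edgeR adjusted p = 0.018). Gabpa, the DNA-binding subunit of GABP, had 79.0 and 76.6 CPM in CCM and 54.8 and 62.9 CPM in TCM (log2 FC -0.40, edgeR adjusted p = 0.017). For each of the 3, both TCM libraries lay outside the range of the 6 others. Without TCM library 1, Nrf1 was still called, at -0.41, while Esrra, at 0.35, and Gabpa, at -0.31, did not reach the fold threshold; without CCM library 1 or CCM library 2 none of the 3 passed, and DESeq2 did not call Nrf1 (adjusted p = 0.069).

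Of 25 genes that read or maintain the mitochondrial genome, 0 were called for TCM (2 at an unadjusted p under 0.05, and 0 by DESeq2), beside 19.1% of all genes tested, with a median log2 FC of -0.01. Those 2 passed the adjusted test but not the fold threshold: Fastk, at a log2 FC of -0.35 (edgeR adjusted p = 0.037), and Pnpt1, at 0.34 (edgeR adjusted p = 0.043). Tfam, which packages that genome, was at -0.08 (edgeR adjusted p = 0.64). The share of all genes tested that rose was 8.83%. Of 44 assembly factors 1 rose, Ndufaf3, with 8.18 and 7.17 CPM in CCM and 14.02 and 10.2 CPM in TCM. Of 77 mitochondrial ribosomal proteins 1 rose, Mrpl30, with 44.4 and 48.4 CPM in CCM and 74.8 and 60.3 CPM in TCM. Of 14 TCA cycle enzymes 1 rose, Idh2, with 138 and 137 CPM in CCM and 195.5 and 166 CPM in TCM. These 3, like Fastk and Pnpt1, were named for passing the test, and none of the 3 was called without TCM library 1.

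Promoter sequence was searched for the motifs shown above, GCATGCGC for NRF1 and CCGGAAG for ETS factors, on both strands of the 300 bases from 250 before to 50 after each RefSeq start. Promoters on chromosome 18, which holds Ndufa2 and Atp5a1, were left out. The motif search covered the 64 nuclear-encoded members that RefSeq's table holds on the other chromosomes. The NRF1 motif was in 10, or 15.6%, against 6.23% of 9385 tested genes and 3.05% of all 27025 genes searched. The ETS motif was in 17, or 26.6%, against 21.0% and 9.93%. Against the CCM mean, the 10 genes with the NRF1 motif had median log2 differences of 0.51 in TCM library 1 and 0.03 in TCM library 2. The 17 with the ETS motif had 0.63 and -0.02, and the 42 with neither had 0.46 and -0.01, so that the split between the TCM libraries was present with and without the motifs.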

How the data were processed

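The authors made directional poly(A) libraries, aligned reads to GRCm38 with STAR 2.7.0a and counted them per gene with featureCounts (Subread 2.0.1), per the submitters' processing notes. The deposited values used here are raw counts per gene; how reads with several matches and strand were counted is not given in the sources used here. A second table, named as normalized, held whole numbers and was not used. Groups came from the labels, and no column was left unused (0 columns).

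Genes reaching 10 counts in 3 or more libraries were fitted with edgeR 4.0.16 in R 4.3.3 (TMM factors 0.938 to 1.04, estimateDisp, robust glmQLFit and glmQLFTest, all 8 libraries, a mean for each condition). P values were adjusted over 12137 genes by the Benjamini-Hochberg method, and a call needed an adjusted p under 0.05 and a log2 FC beyond 0.39. CPM values use TMM-scaled sizes; log2 levels of single libraries add 0.5 counts. On simulated data for TCM with CCM over 12137 genes, 49% of 1.5-fold and 91% of 2-fold changes were recovered, with 5 false calls. The simulation gave every gene and library the same spread, whereas the real TCM libraries differed more than those of other conditions. Its rates therefore need not hold for the real comparison. Alternatives were DESeq2 1.42.0, other scalings, filters and thresholds, a replicate block and leaving out each library. Intervals cover counting error only.

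Named genes were: all mitochondrial members; called members (at most 12 a direction); per complex, the nuclear-encoded member of highest CPM and of lowest and highest log2 FC for TCM; tissue isoforms; and 4 genes the patterns miss. Members and lists were chosen with earlier results of these data known. Positions and exon lengths (all exons of a gene merged) come from GENCODE M21 on GRCm38, not the annotation of the counting, and were found for 82 members, of which 41 overlap another gene. Promoters are RefSeq's. A gene of the marker lists is not reported here.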

Additional observations from a re-analysis of the deposited data

Results flagged for a closer look

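For Ndufa6 the TCM effect exceeded the LA effect by 0.76 on the log2 scale (SE 0.21, edgeR adjusted p = 0.038): the log2 FC was 0.60 for TCM and -0.16 for LA. The call was lost without any 1 of the 6 CCM, LA and vehicle libraries (0.65 to 0.88, edgeR adjusted p from 0.054 to 0.17) and without TMM factors (0.62, edgeR adjusted p = 0.080). For Cox6a1 and Cox7a2l, both TCM libraries lay above both CCM libraries and both LA libraries below both vehicle libraries. The differences of the effects were 0.58 for Cox6a1 (edgeR adjusted p = 0.18) and 0.67 for Cox7a2l (edgeR adjusted p = 0.061), and neither passed the test of the difference. In Cox6a1 TCM library 2, at 118 CPM, stood close to CCM (107 and 111 CPM), and in Cox7a2l, at 139.5 CPM, close to CCM library 2 (138 CPM).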

How the results depend on the processing

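For TCM, the number of nuclear-encoded members called (5) was 2 without TMM factors, 9 with DESeq2 and 20 with no filter on low counts. It was 3 with only the libraries compared, 2 beyond a log2 FC of 0.68 and 0 with glmTreat against 0.39. Over all genes the TCM calls (2314) were 2692, 2004, 2696, 1731, 1331 and 979 in the same order. The number of mitochondrial mRNAs called (3) was 1 beyond 0.68 and 0 with glmTreat. For the TCM effect minus the LA effect, nuclear-encoded calls (1) were 2 with DESeq2, 11 with no filter and 0 with glmTreat. Mitochondrial calls (0) were 1 with DESeq2, with no filter and with the replicate block. Over all genes the calls on this difference (1268) were 1119 with DESeq2, 1799 with no filter, 625 with glmTreat and 1316 with the replicate block. For CCM with vehicle, mitochondrial calls (0) were 2 with no filter and 1 with only the libraries compared, where the calls over all genes (158) were 584 and 679. The ratio of mitochondrial to nuclear-encoded counts in TCM over that in CCM, 0.916, became 0.647 from medians over members. There both TCM libraries lay below both CCM libraries, but the mRNA at the mitochondrial median differed between TCM (mt-Nd1) and CCM (mt-Nd5). The causes were not tested.

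Leaving out 1 library at a time, TCM calls ranged from 0 (without CCM library 1) to 48 (without TCM library 2) among nuclear-encoded members and from 0 to 3 among mitochondrial ones; calls on the difference of effects ranged from 0 to 48 and from 0 to 1, and the median difference of the mitochondrial mRNAs from 0.0030 to 0.43. The median log2 FC of nuclear-encoded members for TCM ranged from 0.0045 to 0.48. For LA with vehicle and CCM with vehicle the number of members called did not change in these fits, while the calls over all genes were fewer in most of them. Leaving out TMM factors moved the median of all genes for TCM by -0.14.

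Same-numbered libraries had correlated deviations over all genes of 0.35 for vehicle with LA but -0.24 for CCM with TCM, so the numbers were not taken as pairs. With the replicate block, 5 nuclear-encoded and 4 mitochondrial members were called for TCM, beside 2367 of all genes tested. With CCM numbers crossed, a pairing added after seeing the data, 16 nuclear-encoded members were called for TCM and 6 for the difference of effects. Over all genes tested these calls were 2675 and 1938.

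At this depth Ndufa4l2, Cox6a2, Atp5l and Ndufs5 rest on few counts, and the 25 untested symbols could not be compared.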
